A study of Mus musculus with 6 samples.

Results

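The subject here is a set of 10 genes of late neutrophil granules and of calprotectin, measured in leukemia cells from the marrow of mice given cytarabine and of control mice: S100a8, S100a9, Retnlg, Ltf, Lcn2, Camp, Ngp, Mmp8, Mmp9 and Cxcr2. They are 10 of the 23284 genes in the expression tables, and they were named because earlier results of these same libraries showed several of them lower after cytarabine. Their difference between the groups is therefore given as a description, without a test. The cells were C1498-EGFP, 1 clone of a mouse acute myeloid leukemia line that carries green fluorescent protein, injected into C57BL/6 J mice (female and 8 to 10 weeks of age unless stated otherwise). On day 21, GFP+ CD49b+ cells were sorted from the marrow of femur, tibia and pelvis, and each mouse gave 1 library. Both groups of 3 mice carried the same leukemia and differed in cytarabine, a cytidine analog that blocks DNA synthesis. Cytarabine was injected on days 19 and 20 in the imaging experiments, and the schedule of the RNA-Seq mice was not given separately. The control mice are called untreated in one place and PBS in another.

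Neutrophils make their granule proteins in waves as they mature in the marrow. The proteases of azurophil granules come first, at the promyelocyte stage. Lactoferrin, lipocalin 2 and cathelicidin of specific granules follow, and gelatinase B (MMP9) of gelatinase granules comes later still. S100A8 and S100A9 form calprotectin, a calcium- and zinc-binding complex that fills the cytosol of neutrophils and withholds metal ions from microbes.

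S100a8 and S100a9 are neighbours on chromosome 3 with 22596 bases between them. S100a8 lies at chr3:90668978-90670035 and S100a9 at chr3:90692632-90695721, on opposite strands. Chromosome 9 holds Camp (chr9:109847379-109849617), Ngp (chr9:110419747-110423012), Ltf (chr9:111019271-111042767) and, far from these, Mmp8 (chr9:7558456-7568485). Camp and Ngp are 570 kb apart, and Ngp and Ltf 596 kb. Lcn2 (chr2:32384633-32388252) and Mmp9 (chr2:164940780-164955850) are both on chromosome 2. Retnlg is at chr16:48872621-48874496 and Cxcr2 at chr1:74153989-74161246. All positions are those of whole genes in GENCODE M21 on GRCm38, the mm10 build.

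The bases just upstream of 5 of the genes are printed because C/EBP-family factors are known drivers of granulocyte genes and each stretch holds a C/EBP-type match. RefSeq sequence of GRCm38.p6 was found for 9 of the 10 promoters, all but Mmp9. Each stretch runs 5′ to 3′ on the gene's strand and ends before the first annotated start, and the capitals mark matches to TTNNGNAA on either strand.
S100a8 (chr3:90668821-90668977, plus strand, 157 bases): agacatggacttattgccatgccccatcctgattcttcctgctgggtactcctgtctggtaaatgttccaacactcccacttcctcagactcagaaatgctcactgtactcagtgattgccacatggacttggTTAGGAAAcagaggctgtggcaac
S100a9 (chr3:90695722-90695881, minus strand, 160 bases): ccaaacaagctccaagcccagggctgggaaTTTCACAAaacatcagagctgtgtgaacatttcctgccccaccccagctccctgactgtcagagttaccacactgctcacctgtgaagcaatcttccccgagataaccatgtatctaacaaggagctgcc
Ltf (chr9:111019111-111019270, plus strand, 160 bases): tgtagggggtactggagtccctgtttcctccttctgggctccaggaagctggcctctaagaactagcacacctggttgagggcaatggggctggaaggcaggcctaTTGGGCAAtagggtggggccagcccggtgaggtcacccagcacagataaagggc
Ngp (chr9:110419587-110419746, plus strand, 160 bases): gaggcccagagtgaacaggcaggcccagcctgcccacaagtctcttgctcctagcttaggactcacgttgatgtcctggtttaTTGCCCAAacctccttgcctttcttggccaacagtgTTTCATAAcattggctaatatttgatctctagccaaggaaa
Mmp8 (chr9:7558269-7558428, plus strand, 160 bases): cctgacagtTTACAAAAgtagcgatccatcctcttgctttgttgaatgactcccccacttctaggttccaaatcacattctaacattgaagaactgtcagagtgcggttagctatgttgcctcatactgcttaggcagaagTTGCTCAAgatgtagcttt
Distances were counted from the RefSeq start, which lies 93 bases inside the GENCODE gene for S100a8, 61 for Ngp and 21 for Ltf. Within 250 bases before the RefSeq start, 7 of the 9 promoters held TTNNGNAA, against 36.8% of the 32851 RefSeq promoters searched in the same way. Camp and Cxcr2 had no match in this window. The PU.1-type letters GAGGAA were in 5 of the 9, against 23.3% of all promoters, and the TATA box letters TATAAA in 1, S100a8, at 30 bases before its RefSeq start and so outside the stretch printed, against 12.4%. The letters searched were chosen after expression values were seen, both strands were read, and a match describes sequence without showing that a factor binds.

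The libraries held an estimated 11500000 to 18800000 reads each. FPKM divides the reads of a gene by transcript length and library size, so levels of different genes can be set side by side. The common leukocyte antigen gene Ptprc was at 284 to 386 FPKM in all 6 libraries. Kit, a progenitor marker, measured 0.813, 1.52 and 1.59 FPKM in the treated mice, compared with 0.719, 0.243 and 0.436 FPKM in controls. The other genes on its list of myeloid and leukemia markers reached higher levels, from 2.12 FPKM for Cd33 to 71.1 FPKM for Mpo. Colon transcripts were high in 3 libraries. Zg16, a goblet cell gene, reached 1049 FPKM in control 1 and 1948 and 2207 FPKM in cytarabine 2 and cytarabine 3. It was 137 FPKM in cytarabine 1 and under 10 FPKM in the remaining controls. Heart transcripts varied in another order. Nppa, a heart gene, measured 2.08, 1.27 and 393 FPKM in cytarabine 1, 2 and 3 and 1480, 318 and 30.6 FPKM in control 1, 2 and 3. Itga2, which encodes the sorted antigen CD49b, was at 7.79 to 8.11 FPKM with cytarabine and 10.6 to 13.3 FPKM in controls. The genes' levels are given below by library for this reason.

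Calprotectin was the most abundant product of the 10 genes in both groups. S100a8 measured 638, 86.9 and 83.0 FPKM in cytarabine 1, 2 and 3, compared with 589.7, 777 and 792 FPKM in control 1, 2 and 3. S100a9 measured 514, 64.5 and 61.5 FPKM in the treated mice, compared with 552, 809 and 748 FPKM in controls. Cytarabine 1 stood beside control 1 for both genes, while cytarabine 2 and cytarabine 3 were each far under every control. The groups overlapped for S100a8, with a log2 difference of -2.09 ± 0.81 (cytarabine minus control, SE of the limma fit on log2(FPKM + 1), n = 3 mice per group). They did not overlap for S100a9, at -2.44 ± 0.84. In sorted bulk RNA, fewer cells with these transcripts and less RNA per cell cannot be told apart. The sort kept GFP+ CD49b+ cells, and whether host neutrophils or their RNA were among them was not tested. S100a8 ranked between 119 and 152 of 23284 genes in the controls and 140 in cytarabine 1, but 1122 and 1172 in cytarabine 2 and cytarabine 3.

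Retnlg, which encodes resistin-like gamma, a small secreted protein of mouse neutrophils, differed more. It measured 12.4, 4.08 and 3.17 FPKM in the treated mice, compared with 48.3, 68.9 and 66.1 FPKM in controls. Cytarabine 1 was here nearer to the other treated libraries than to any control. The control mean was 9.35 times the cytarabine mean, and the log2 difference was -3.23 ± 0.45, the lowest of the 10. The lowest value rests on about 17 reads, whose 95% Poisson interval is 1.89 to 5.20 FPKM and covers counting error only.

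Ltf, Lcn2, Ngp and Camp were lower in mean in the treated mice, to different extents. Ltf, encoding the iron-binding lactoferrin, measured 13.2, 3.88 and 3.499 FPKM in the treated mice, compared with 26.0, 42.2 and 39.2 FPKM in controls. Lcn2, encoding lipocalin 2, which binds bacterial siderophores, measured 38.7, 13.8 and 10.98 FPKM in the treated mice, against 53.8, 94.97 and 94.5 FPKM. Neither gene's groups overlapped, and the log2 differences were -2.41 ± 0.48 and -2.05 ± 0.49. Ngp, encoding neutrophilic granule protein, measured 92.7, 17.4 and 17.5 FPKM in the treated mice, compared with 98.2, 143 and 158 FPKM in controls. Its groups were separated by a narrow margin, cytarabine 1 lying just under control 1, with a log2 difference of -2.05 ± 0.67. Camp, encoding the antimicrobial peptide precursor cathelicidin, measured 123, 7.81 and 8.39 FPKM in the treated mice, against 64.0, 98.7 and 95.8 FPKM. Cytarabine 1 was thus above every control for Camp, at 142% of the control mean, while cytarabine 2 and cytarabine 3 were at 9.06% and 9.74%. The groups overlapped, at -1.98 ± 1.05.

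The metalloproteinases parted ways. Mmp8, encoding neutrophil collagenase, measured 1.56, 0.352 and 0.697 FPKM in the treated mice, compared with 5.54, 9.38 and 9.78 FPKM in controls. Every treated value was under the lowest control. The control mean was 9.48 times the cytarabine mean, and the log2 difference, which the pseudocount of 1 shrinks at such levels, was -2.32 ± 0.32. Mmp8 passed the filter of a mean of 1 FPKM only through the controls, and its lowest value rests on about 15 reads (95% Poisson interval 0.201 to 0.591 FPKM). Mmp9, encoding gelatinase B, measured 47.6, 58.2 and 58.2 FPKM in the treated mice, compared with 46.5, 50.7 and 57.1 FPKM in controls. Its groups overlapped, with a log2 difference of 0.08 ± 0.12. Cxcr2, the chemokine receptor that draws neutrophils out of the marrow, measured 1.85, 3.88 and 1.498 FPKM in the treated mice, against 2.84, 3.86 and 3.63 FPKM. Cytarabine 2 was level with the highest control, the groups overlapped, and the log2 difference was -0.44 ± 0.29.

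**Figure D1:**
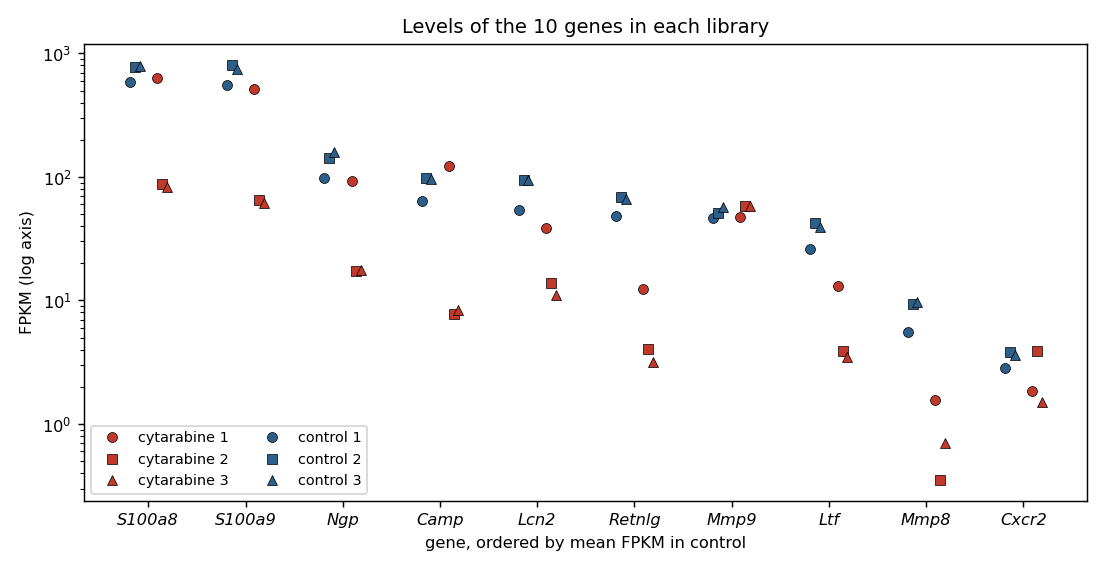
FPKM on a log axis of the 10 genes, ordered by their control mean, with 1 point per library (red cytarabine, blue control). For 8 genes the circle of cytarabine 1 is the highest red point, and the points of Mmp9 lie together between 46.5 and 58.2 FPKM.

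Of the 10 genes, 6 had every treated library under every control (S100a9, Retnlg, Ltf, Lcn2, Ngp and Mmp8), none the reverse, and 4 overlapped. Among all 11703 genes tested, 12.9% had every treated library under every control and 10.9% the reverse. The 10 genes were chosen from this contrast, so nothing is read from that comparison. Their median log2 difference was -2.07, and that of all genes tested was -0.0015. Without cytarabine 1, 8 of the 10 did not overlap and the median was -2.89. Fewer libraries make non-overlap easier to reach, and the share of all genes was not counted there, so nothing is read from that rise. By library, 7 genes were under every control in cytarabine 1, 8 in cytarabine 2 and 9 in cytarabine 3. The share of all genes under every control in a single library was not counted, so these numbers are a description only.

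**Figure D2:**
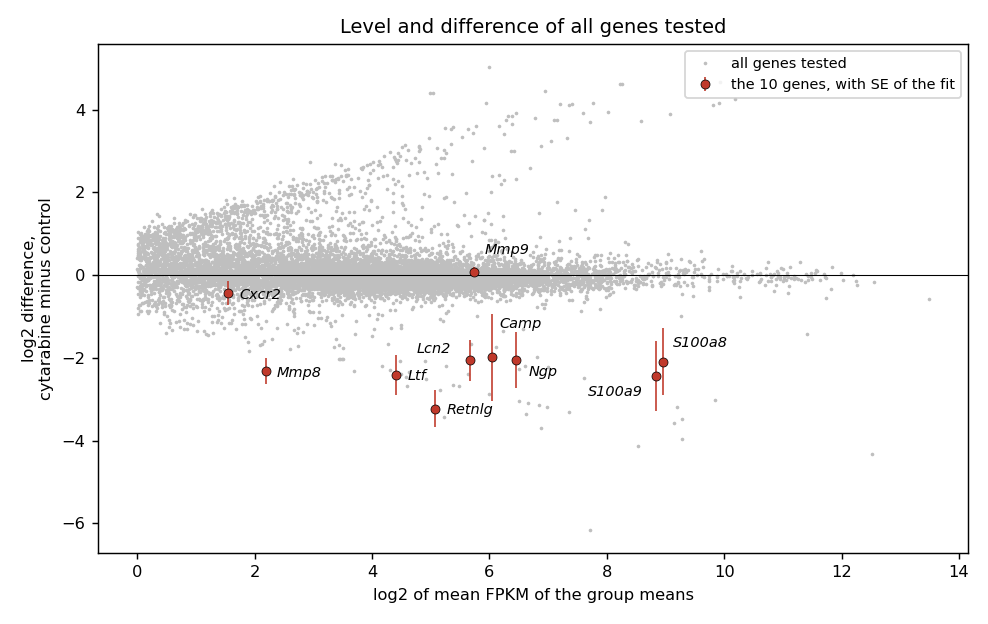
Log2 difference between the groups (cytarabine minus control) against mean level (log2 of mean FPKM) for all 11703 genes tested in grey and the 10 genes in red, with bars for the SE of the fit. Of the red points, 8 lie between -1.98 and -3.23, and Mmp9 at 0.08 and Cxcr2 at -0.44 are apart from them.

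The spread among treated mice was wide for the 8 genes that were lower by more than 1 log2 unit. Their coefficient of variation was 71.5% to 143% with cytarabine and 15.7% to 29.2% in controls. Mmp9 varied by 11.2% and 10.3%. Control 1 was the lowest control for all 10 genes. The 28 pairs among these 8 genes had Pearson correlations from 0.774 to 0.998 over the 6 libraries, with a median of 0.965, a description over libraries that also share their treatment and colon transcripts. S100a8 and S100a9 were the pair at 0.998. Against the mean of the other 9 genes, Lcn2 reached 0.993 and Camp 0.910, but Cxcr2 0.395 and Mmp9 -0.56.

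Each gene was also set against S100a8 in the same library. S100a8 is itself among the 10 genes and was far lower in cytarabine 2 and cytarabine 3, so every ratio moves with it. Mmp9, whose own level differed little, was at 7.47%, 66.9% and 70.1% of S100a8 with cytarabine and at 7.88%, 6.53% and 7.20% in controls. S100a9 was at 80.7%, 74.2% and 74.1% of S100a8 with cytarabine and at 93.6%, 104% and 94.5% in controls. Retnlg was at 1.94%, 4.69% and 3.82% against 8.18%, 8.88% and 8.35%, and Mmp8 at 0.244%, 0.404% and 0.840% against 0.940%, 1.21% and 1.23%. These were the 3 of 9 ratios whose groups did not overlap, all lower with cytarabine. The share of all genes whose ratio to S100a8 did not overlap was not counted, so nothing is read from that number. For Retnlg and Mmp8, cytarabine 1 had the lowest ratio of all. Camp went the other way in that library, at 19.3% of S100a8 against 10.9% to 12.7% in controls. The share of calprotectin in the summed FPKM of the 10 genes was 77.7% in cytarabine 1, 58.1% and 58.2% in cytarabine 2 and cytarabine 3, and 74.6% to 76.8% in controls.

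**Figure D3:**
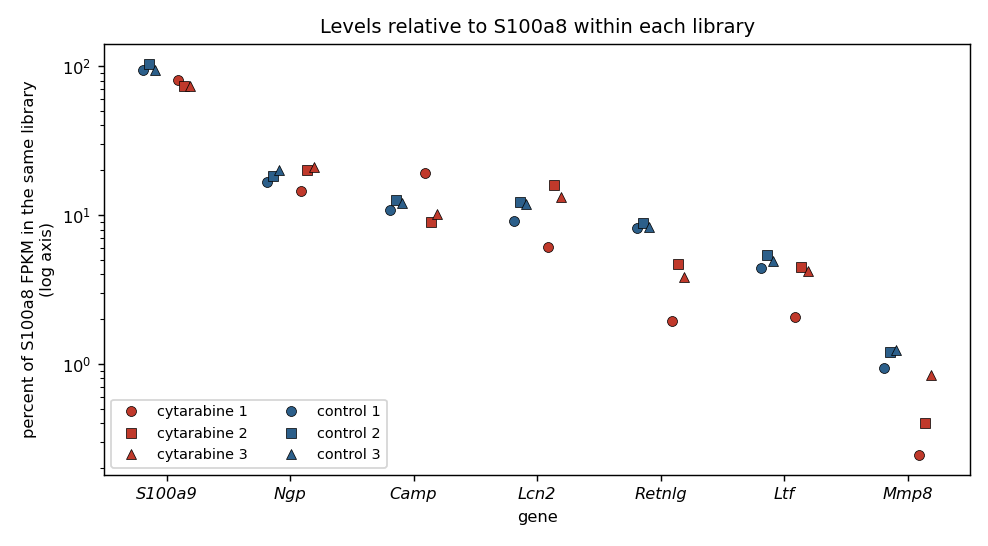
FPKM of 7 of the genes as a percent of S100a8 in the same library, on a log axis, with 1 point per library (red cytarabine, blue control). For S100a9, Retnlg and Mmp8 all red points lie under all blue points, and Camp in cytarabine 1 stands above the controls at 19.3%.

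In controls the order by mean level was S100a8, S100a9, Ngp, Camp, Lcn2, Retnlg, Mmp9, Ltf, Mmp8 and Cxcr2. The ranges of S100a8 and S100a9 overlapped, as did those of each neighbouring pair from Ngp to Mmp9, while Ltf, Mmp8 and Cxcr2 each stood apart from the gene before. With cytarabine, Mmp9 followed the calprotectin genes, Retnlg came after Ltf, and Mmp8 was last. The ranges there overlapped for every neighbouring pair except S100a9 and Mmp9. The 10 genes together made 0.230% of all FPKM in cytarabine 1, 0.040% in cytarabine 2, 0.040% in cytarabine 3, and 0.229%, 0.330% and 0.315% in control 1, 2 and 3.

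The other granule genes were 15 on a list written with earlier results known. Counting all 15, whatever their level, 8 had every treated library under every control and 0 the reverse, where 9.02% and 9.18% of the 18178 genes above 0 in any library did so. Of the 13 that passed the filter, 6 were lower at an unadjusted limma p under 0.05 and 0 higher, where 9.81% of all genes tested were lower and 7.6% higher. Among the 6, Itgb2l passed the filter only through the controls. No gene of any list, and 0 of all 11703 genes, passed an adjusted p of 0.05 in limma, while 2038 (17.4%) had an unadjusted p under 0.05. Cd177, a surface antigen of neutrophils, measured 3.43, 3.38 and 3.87 FPKM in the treated mice, compared with 5.13, 7.12 and 7.69 FPKM in controls, a log2 difference of -0.73 ± 0.16 (limma adjusted p = 0.153). Itgam, the CD11b integrin chain, measured 2.29, 1.22 and 0.933 FPKM in the treated mice, against 3.17, 4.76 and 3.94 FPKM, at -1.02 ± 0.26 (limma adjusted p = 0.173). Cybb, the catalytic chain of the phagocyte oxidase, had a log2 difference of -1.03 ± 0.34 (limma adjusted p = 0.230). The groups of 7 of the 13 overlapped, and 3 had a difference above 0, named after their values were seen. These were Pglyrp1, a peptidoglycan-binding protein, at 0.60 ± 0.36, Fcnb, a ficolin, at 0.33 ± 0.86, and Cyba, a further chain of the oxidase, at 0.20 ± 0.16. Fcnb was at 689% of the control mean in cytarabine 1 and at 55.6% and 37.7% in cytarabine 2 and cytarabine 3. Without cytarabine 2 the count of 6 was 3, and it was also 3 without control 2. The number of all genes at an unadjusted limma p under 0.05 in either direction was 1278 and 1260 there, against 2038.

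Of 28 further genes of mature neutrophils, counted whatever their level, 9 had every treated library under every control and 0 the reverse, beside the 9.02% and 9.18% given above. Of the 17 that passed the filter, 5 were lower at an unadjusted limma p under 0.05 and 0 higher, where 9.81% and 7.6% of all genes tested were. Of these 5, 4 (Fpr2, Lrg1, Csf3r and Mcemp1) passed the filter only through the controls, where they are high, so they had to differ and their count supports nothing. With a filter of 5 FPKM, 1 of the 3 genes left was lower at that p. That gene, Ifitm6, measured 5.94, 2.69 and 5.37 FPKM in the treated mice, compared with 12.8, 20.3 and 20.8 FPKM in controls, a log2 difference of -1.76 ± 0.30 (limma adjusted p = 0.136). Fpr2, a receptor for formylated peptides, measured 0.908, 0.580 and 0.548 FPKM in the treated mice, against 2.25, 4.06 and 3.73 FPKM. Csf3r, the receptor of the granulocyte growth factor G-CSF, measured 1.23, 0.265 and 0.262 FPKM in the treated mice, against 1.65, 3.83 and 3.15 FPKM. In cytarabine 1, 5 of the 17 were at or above their control mean, with Trem3 at 244% and Il1r2 at 172%, while Ifitm6 was at 33.1%. Trem3 and Il1r2 were named after their values were seen. Without cytarabine 1 the count of 5 was 11, and without control 1 it was 8. Among all 11703 genes, the number at an unadjusted limma p under 0.05 in either direction was 4075 and 2097 there, against 2038 with all libraries. Nothing is therefore read from these recounts. When scores of colon and heart transcripts entered the limma model, 0 genes of either list were lower at an unadjusted p under 0.05. In that model 556 of all 11703 genes had such a p in either direction, against 2038 without the scores. The model fits both scores beside treatment to only 6 libraries, so nothing is read from the 0.

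Genes of the earlier azurophil wave were set beside the 10 genes, without a test of the difference between the sets. Of 8 genes tested on the azurophil list, 1 (Ctsc) was lower and 0 higher at an unadjusted limma p under 0.05. Among all genes tested, 9.81% were lower and 7.6% higher at that p. The median log2 difference of the 8 listed genes was 0.25, with Serpinb1a the highest at 1.86 ± 0.97. Mpo, encoding myeloperoxidase, measured 71.1, 3.13 and 2.33 FPKM in the treated mice, compared with 7.83, 11.04 and 12.3 FPKM in controls. Elane, encoding neutrophil elastase, measured 81.7, 2.81 and 2.83 FPKM in the treated mice, against 8.54, 9.94 and 8.26 FPKM. Cytarabine 1 was thus at 684% and 917% of the control mean, and the other treated libraries were under every control. Prtn3, Ctsg and Ms4a3, named after their values were seen, had the same order, at 811%, 996% and 1049% in cytarabine 1. Others on the list did not have it. Prss57 was at 263%, 139% and 164% of the control mean in cytarabine 1, 2 and 3, and Serpinb1a at 83.9%, 388% and 461%. Serpinb1a measured 42.9, 5.64 and 6.07 FPKM in control 1, 2 and 3. It was thus highest in cytarabine 2, cytarabine 3 and control 1, the libraries with high colon transcripts. Cytarabine 1 is given here for the other genes. In cytarabine 1, Retnlg and Mmp8 were at 20.2% and 18.9% of the control mean, Ltf at 36.9%, Lcn2 at 47.7%, Ngp at 69.7%, S100a9 at 73.1%, S100a8 at 88.6% and Camp at 142%. Red cell genes were also high there, with a summed 312 FPKM against 41.9 and 50.6 FPKM in the other treated libraries and 39.2 to 73.1 FPKM in controls, and their part in these values was not tested.

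**Figure D4:**
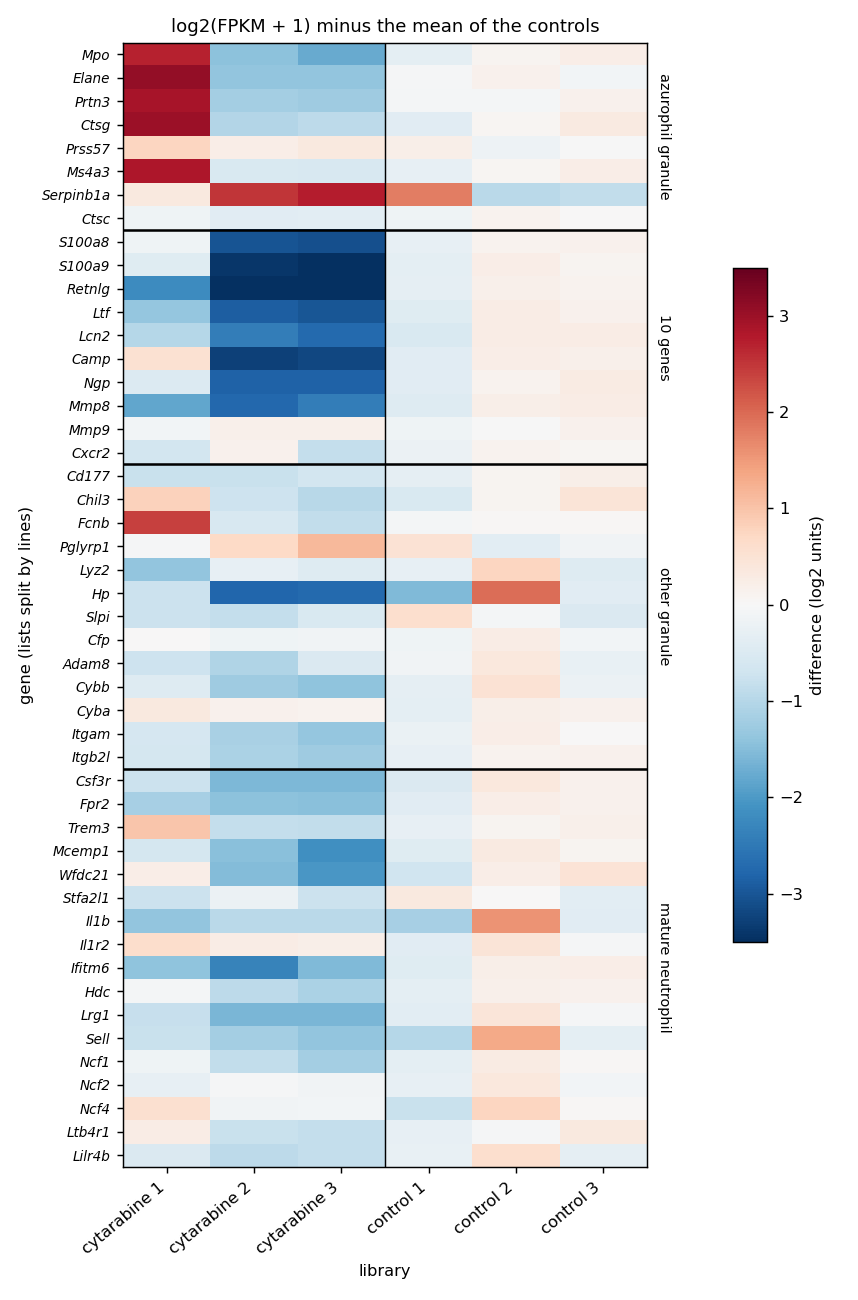
Difference of log2(FPKM + 1) from the control mean in each library, for azurophil genes, the 10 genes, and tested genes of the other granule and mature neutrophil lists. Cytarabine 1 is red for Mpo, Elane, Prtn3, Ctsg and Ms4a3 and blue for Retnlg and Mmp8. For these genes cytarabine 2 and cytarabine 3 are blue. Serpinb1a, Prss57 and, faintly, Mmp9 are red in cytarabine 2 and cytarabine 3, and Cxcr2 is faintly red in cytarabine 2. Colours are limited to 3.5 log2 units in either direction.

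Regulators of granulocyte genes were a list of 8, all tested. Of these, 1 (Gfi1) was lower and 0 higher at an unadjusted limma p under 0.05, beside 9.81% and 7.6% of all genes tested. Gfi1, a repressor needed for neutrophil formation, measured 13.5, 10.2 and 9.80 FPKM in the treated mice, compared with 15.1, 17.3 and 16.6 FPKM in controls (log2 difference -0.52 ± 0.13, limma adjusted p = 0.178). Cebpe, which drives the specific granule genes, measured 2.36, 0.204 and 0.145 FPKM in the treated mice, against 1.02, 1.01 and 1.43 FPKM. Its groups overlapped in the same way as those of Camp, with cytarabine 1 above every control. Cebpa and Cebpd, relatives named after their values were seen, had log2 differences of 0.51 ± 0.29 and 0.69 ± 0.31, and Cebpa was above every control in each treated library by a margin that was small in cytarabine 1 (1.126 against 1.124 FPKM). Gfi1 was among the 10 genes outside the set whose profile over the 6 libraries was most like the mean of the 10 (Pearson r 0.996). The others were Bcs1l, Srpr, Carm1, Leng1, Gbf1, Bcl2l1, Scamp3, Smc1a and Ints10, at r of up to 0.999, with log2 differences of -0.18 to -0.53. Such likeness is a description over libraries that also share their treatment and colon transcripts, and no link to Gfi1 is read from it.

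Receptors, binding partners and ligands of the 10 proteins formed a further list. Of 16 such genes, 9 were tested, and 1 was higher and 0 lower at an unadjusted limma p under 0.05. The shares of all genes tested at that p were 7.6% higher and 9.81% lower. Bsg, which encodes basigin, a receptor for S100A9, measured 191, 235 and 231 FPKM in the treated mice, compared with 177, 182 and 182 FPKM in controls (log2 difference 0.27 ± 0.09, limma adjusted p = 0.231). Tlr4 was at 0.404 to 2.38 FPKM over all libraries, and Ager at 0.498 to 1.62 FPKM. Among the ligands of CXCR2, Cxcl1 reached 5.64 FPKM and Cxcl5 7.22 FPKM, both in control 2. Timp1, the inhibitor of MMP9, measured 0.224, 0.542 and 1.65 FPKM in the treated mice, compared with 4.43, 18.0 and 0.636 FPKM in controls, and its groups overlapped.

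Relatives of the 10 genes in the S100, metalloproteinase and resistin families were also measured. Of 9 other S100 genes tested, 0 were lower and 4 higher at an unadjusted limma p under 0.05, beside 9.81% and 7.6% of all genes tested. S100a11 measured 266, 283 and 283 FPKM in the treated mice, compared with 171, 234 and 196 FPKM in controls (limma adjusted p = 0.171). Of 7 other metalloproteinase genes tested, 0 were lower or higher at that p. Among the resistin genes, Retn reached 10.1 FPKM and Retnla 23.5 FPKM, and both overlapped between groups. Of 18 tested coding genes next to the 10 on their chromosomes, chosen after values were seen, 1 was lower without overlap and 4 were higher, beside 12.9% and 10.9% of all genes tested, and the median log2 difference was 0.11.

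Colon transcripts varied beside the 10 genes across the libraries. The colon score, the mean log2(FPKM + 1) of colon genes, was 3.47, 6.47 and 6.69 in cytarabine 1, 2 and 3 and 5.54, 1.06 and 1.02 in control 1, 2 and 3. When colon and heart scores entered the model as covariates, the 10 genes had a median log2 difference of -1.25, with Retnlg at -2.74, Mmp8 at -1.53 and Camp at -0.53. In a division made after seeing the data, by the first principal component, the median was -2.48 among cytarabine 2, cytarabine 3 and control 1, and -0.71 among cytarabine 1, control 2 and control 3. In the latter, Retnlg was at -2.36 and Camp at 0.33. Macrophage genes summed to 99.0 to 119 FPKM with cytarabine and 97.9 to 251 FPKM in controls. These sums hide wide variation of single genes, named here after their values were seen. Cx3cr1 alone was at 38.7 to 67.0 FPKM over all libraries, and Ly6c2 was at 35.0 FPKM in cytarabine 1. C1qa measured 1.83, 18.5 and 14.4 FPKM in the treated mice, compared with 8.80, 47.5 and 3.56 FPKM in controls.

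**Figure D5:**
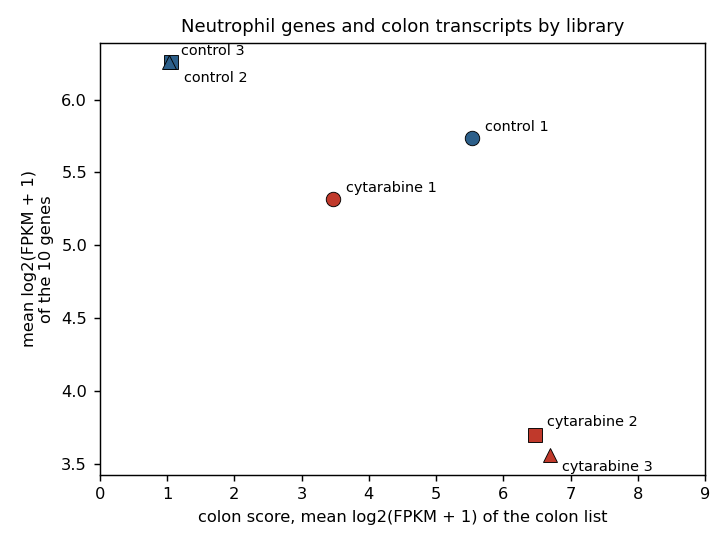
Mean log2(FPKM + 1) of the 10 genes against the colon score, the mean log2(FPKM + 1) of the colon list, with 1 labelled point per library (red cytarabine, blue control). Cytarabine 2 and cytarabine 3 have the highest colon scores and the lowest means, and control 1, at a colon score of 5.54, lies above cytarabine 1.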

How the data were processed

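Each of the 6 libraries holds RNA of sorted leukemia cells from 1 mouse, 3 given cytarabine and 3 controls. Per the labels and methods, the authors aligned single-end reads of 75 bases to mm10 (TopHat2 2.0.13), and the deposited unit is FPKM, 1 value per gene, calculated by Cufflinks 2.2.1 (Bowtie2 2.2.3 and SAMtools 0.1.19 are in the submitters' processing notes). The gene annotation they used is not given in the sources used here. FPKM values are not counts, so depth was estimated from the spacing of low values in 3327 single-transcript genes, assuming 200-base fragments (72.2% to 76.0% of low values within 0.1 of a whole read). Approximate reads and their intervals rest on that assumption. At these depths 3 reads on 2000 bases are 0.0886 to 0.145 FPKM.

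A filter of 1 FPKM on the mean over libraries kept 11703 of 23284 genes. These were fitted on log2(FPKM + 1) in limma 3.58.1 (R 4.3.3), with eBayes and its trend option, and two-sided p-values were adjusted by Benjamini-Hochberg over all of them. On this scale the difference of a low gene is understated. Groups were called not overlapping when every library of one group was under every library of the other. The 10 genes and the gene lists were chosen with earlier results of these data known. Named are the 10 genes, up to 4 genes of each list in each direction with the smallest unadjusted p under 0.05, defining cell type markers, binding partners, the resistin family and the 10 genes most like the mean of the 10. No column of per-sample values was left unused. Simulated data for this comparison (11703 genes) were used to test the limma step, and 80% of genes changed by 2 log2 units and 87% of those changed by 3 were recovered, with 10 false calls. Each simulated gene varied independently of the others, without the variation that real genes share through colon and heart transcripts. The simulation therefore checks the computation and does not give the recovery in the real libraries. Alternatives were another pseudocount, other filters, other scalings, other eBayes settings, a replicate block, tissue scores as covariates, leaving out each library, and divisions by colon transcripts. A test on counts was not run. Python 3.11.15 and matplotlib 3.10.9 drew the figures.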

Additional observations from a re-analysis of the deposited data

How the results depend on the processing

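The median log2 difference of the 10 genes stayed between -2.89 and -1.69 when single libraries were left out, and the number without overlap between 6 and 8. The share of all genes without overlap was not counted for these smaller groups. Within cytarabine 1, control 2 and control 3, a division added after seeing the data, the median was -0.71, and Camp (0.33) and Mmp9 (-0.17) changed sign. The planned division by colon score left no treated library on the low side, so only its other side gave a value, -1.73. The cause was not tested. Of all genes, 2038 had an unadjusted limma p under 0.05. That number was 994 with a replicate block, 556 with colon and heart covariates, and 1179 to 4075 when single libraries were left out. It was 4075 without cytarabine 1, 1278 without cytarabine 2, 1252 without cytarabine 3, 1260 without control 2 and 1179 without control 3. At an adjusted limma p under 0.05 the number was 0, with 1 gene at a pseudocount of 0.1, 2 without the eBayes trend, 1 with a robust trend, and 0 to 5 when single libraries were left out. The other granule genes counted lower (6) became 1 under a filter of 5 FPKM, which leaves fewer genes tested, 2 with the replicate block, 0 with the covariates, and 3 to 8 when single libraries were left out. The mature neutrophil genes counted lower (5) became 1 under that filter, 11 with no filter, 3 with the replicate block, 0 with the covariates, and 4 to 11 when single libraries were left out. Same-numbered libraries are different mice whose deviations correlated at -0.71, -0.25 and -0.59, so the block joins libraries that share only a number. Few reads limit the precision of Mmp8 and Retnlg in the treated libraries, and 3 mice per group limit every comparison. The p-values set each difference against a spread between these mice only, which eBayes moderates over all genes tested.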
